A study of Mus musculus with 6 samples.

Results

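Peroxisome proliferator-activated receptor gamma coactivator 1α (PGC-1α, encoded by Ppargc1a), its family members PGC-1β (Ppargc1b) and PGC-1-related coactivator (Pprc1), and 7 genes for transcription factors that work with or downstream of them were followed in BV2 cells, an immortalised mouse microglial line. The 10 genes were chosen by name, and every spot other than a control spot whose transcript accession belonged to one of them in the RefSeq gene table was kept. This gave 20 probes, each printed as 1 spot, out of 56605 probes on the array, of which 33767 could be matched to 23462 genes. The 6 arrays held total RNA of BV2 cells treated with lipopolysaccharide (LPS), the bacterial cell-wall product that activates microglia, with 3 arrays of cells overexpressing PGC-1α and 3 arrays of cells without overexpression, called controls below. In the cell-culture methods, which do not name the arrays, a lentivirus carried the PGC-1α coding fragment with a FLAG tag, EGFP and puromycin resistance, and controls received a negative control lentivirus. Cells were then kept in puromycin, and LPS was given at 500 ng/ml for 6 h. There was no array without LPS, so a response to LPS itself could not be measured. BV2 is a single transformed line, and neither the sources of the 3 replicates nor the number of selected lines was stated, so p-values measure only the spread between these arrays, which may be technical.

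PGC-1 coactivators do not bind DNA themselves. They dock onto nuclear receptors and other DNA-bound factors and recruit histone acetyltransferases and the Mediator complex, and they are best known for raising the capacity of mitochondria and the oxidation of fatty acids in muscle, brown fat and liver. Among the partners, estrogen-related receptor α (ERRα, Esrra) and the PPAR receptors are nuclear receptors. Nuclear respiratory factor 1 (Nrf1) and the GA-binding protein α subunit (Gabpa, also called nuclear respiratory factor 2) drive nuclear genes of the respiratory chain and Tfam. The product of Tfam packages mitochondrial DNA and takes part in its transcription. The study asked, with other assays, about ERRα as a partner through which PGC-1α reaches its targets, and the present comparison asks how the RNAs of the family and of these partners differed between the groups.

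Some of these factors have recognition letters in each other's promoters, which is why 4 promoter stretches are shown. RefSeq windows of 300 bases (250 before and 50 after the annotated start, GRCm38.p6) were found for 9 of the 10 genes, 12 windows in all. They were searched on both strands for GCGCATGC (the NRF1 core), CCGGAAG (the core bound by GABP and other ETS factors), AAGGTCA (the core bound by ERR factors) and 2 copies of AGGTCA with any 1 base between them (the PPAR element). The NRF1 letters stood 34 bases before the Esrra start and, as 2 overlapping matches on opposite strands, from 31 bases before the Ppara start, against 2.71% of all 32851 windows. The GABP letters stood 47 bases before the Tfam start and 93 bases before the Gabpa start, against 8.86% of all windows. The ERR letters, present in 4.72% of all windows, and the PPAR letters, present in 0.0396%, were not in the 12 windows. The 100 bases before each start follow on the gene's own strand, 5′ to 3′, with the matches in capitals; a match is a description of letters, not a bound site.
Tfam, chr10:71238045-71238144, minus strand: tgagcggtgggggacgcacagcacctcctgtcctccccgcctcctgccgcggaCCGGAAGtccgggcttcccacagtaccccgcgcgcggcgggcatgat
Gabpa, chr16:84835024-84835123, plus strand: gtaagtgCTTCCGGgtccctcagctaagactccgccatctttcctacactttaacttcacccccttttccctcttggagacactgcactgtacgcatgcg
Esrra, chr19:6921809-6921908, minus strand: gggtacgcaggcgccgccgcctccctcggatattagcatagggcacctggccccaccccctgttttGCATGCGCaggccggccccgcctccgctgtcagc
Ppara, chr15:85735676-85735775, plus strand: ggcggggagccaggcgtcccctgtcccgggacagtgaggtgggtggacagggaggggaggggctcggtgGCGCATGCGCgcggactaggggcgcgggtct

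Levels below are log2 of the processed spot intensity minus the 75th percentile of all spots other than controls on the same array, so that 0 is the level of a spot at that percentile, and each probe is compared only with itself across arrays. The percentile lay at intensities of 1617 to 1893 on the control arrays and 856 to 1268 on the PGC-1α arrays, so a probe's difference in unscaled signal is not the one given below. Replicates of a group correlated at r = 0.987 to 0.995 across probes. The scaling left a positive median of 0.23 (log2) over the 17063 genes tested, and that median was 0.03 after quantile normalization, which forces the same distribution on every array. The shift differed with brightness. When the genes were split by mean level into 10 groups of 1706 or 1707, the median log2 fold change was 0.62 in the dimmest group, -0.13 in group 5 and 0.52 in the brightest group. After quantile normalization these medians were 0.38, -0.11 and 0.0079. Defining microglial markers were well above background on every array for 9 of 10 genes, with Cx3cr1 on none; their summed level was 101 to 108 times the 75th percentile on control arrays and 149 to 177 times it with PGC-1α. For neurons, astrocytes, oligodendrocytes, T cells and adipocytes, 3 to 4 of the 5 markers in each list were also above background on all arrays, and the summed levels of all 5 lists were higher with PGC-1α (for adipocytes, which express Pparg strongly, 0.312 to 0.403 against 0.510 to 0.939, and for neurons 24.3 to 29.8 against 36.5 to 49.8); their part in the results below was not tested. In a bulk RNA sample, fewer cells with an RNA and less of it per cell cannot be told apart.

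Of the 10 genes, 9 had a probe that the scanner software called well above background on the 3 arrays of either group or of both, and these were tested with limma, with the brightest such probe for each gene and Benjamini-Hochberg adjustment over all 17063 genes. Gabpa, Pparg and Esrra rose with PGC-1α, Ppargc1b, Pprc1, Tfam and Ppard fell, and Nrf1 and Ppara did not pass the threshold of 0.05. The 7 of 9 that passed should be read against 56.5% of all genes tested, with 3 higher against 36.9% and 4 lower against 19.6% of all genes. After quantile normalization 5 of the 9 passed, against 42.5% of all genes, with 2 higher against 21.7% and 3 lower against 20.9%. None of the 9 both passed and changed by at least 2-fold, against 14.2% of all genes. Among the 8 genes with a value on every array, the groups did not overlap for 6, against 65.5% of 16297 genes. With 3 arrays a group, an exact permutation test of a single gene cannot give a two-sided p below 0.1, so the calls rest on the spread pooled across genes by limma.

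**Figure D1:**
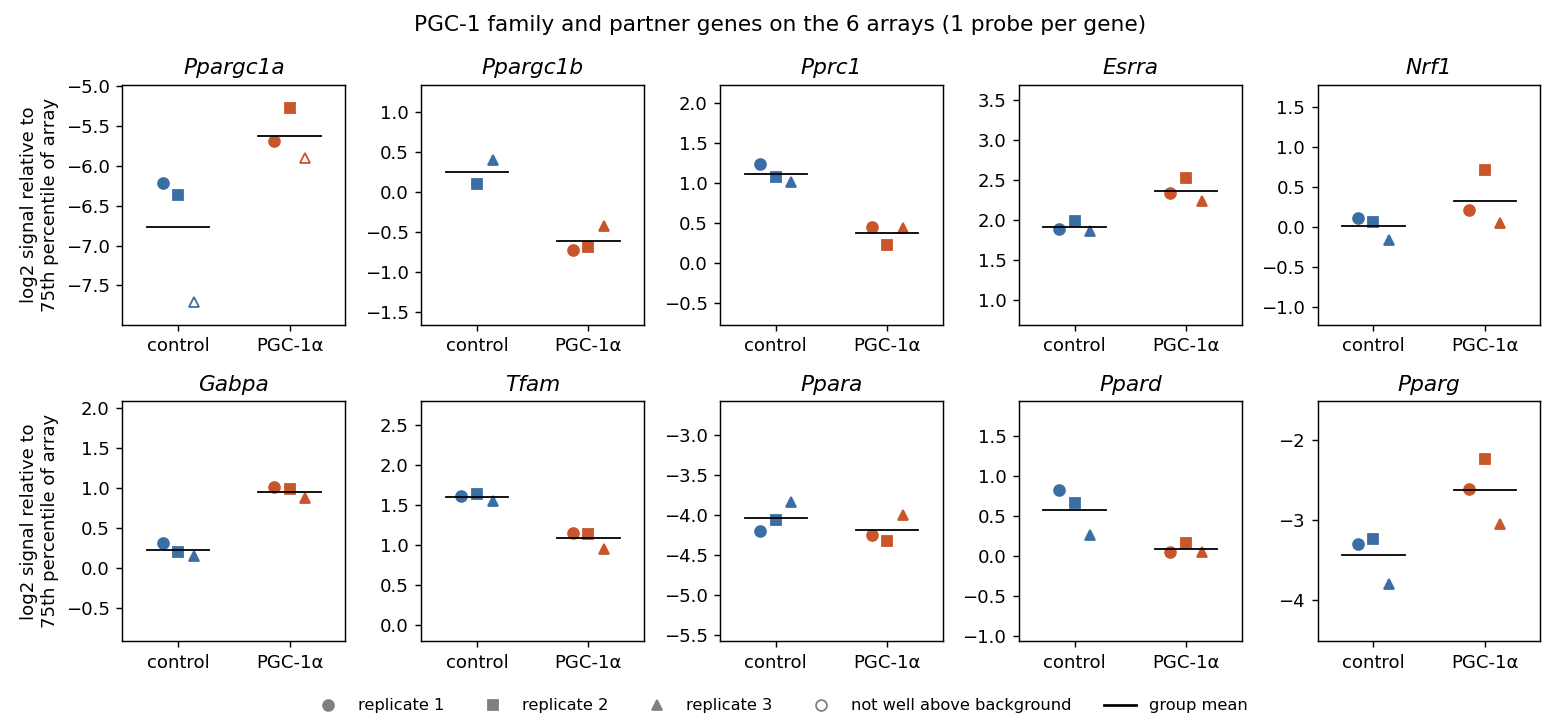
Log2 signal relative to the 75th percentile of each array (y axis, 3 log2 units in every panel) for 1 probe of each of the 10 genes on the 3 control arrays (blue) and the 3 PGC-1α arrays (orange); symbols mark the replicate, open symbols are spots not well above background and black lines are group means. The control and PGC-1α points overlap for Nrf1 and Ppara, and Ppargc1b lacks control replicate 1, whose spot was an outlier.

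Ppargc1a itself, the gene overexpressed, was at the limit of detection. Its brighter probe, A_51_P279038, had intensities of 21.8, 19.6 and 9.06 on the control arrays and of 22.3, 22.1 and 21.2 on the PGC-1α arrays, while the dimmest spots that the scanner software called well above background measured 11.0 to 24.3, depending on the array. In each group, 2 of the 3 spots passed that flag. After scaling, its level was -6.21, -6.37 and -7.71 in controls and -5.70, -5.28 and -5.90 with PGC-1α. The scaled levels did not overlap, whereas the unscaled intensities did, with PGC-1α replicate 3 below control replicate 1. The difference of 1.14 in scaled level (SE 0.41, 95% interval 0.18 to 2.10) had an adjusted p of 0.068 by limma over the 33471 probes fitted without a background filter, and 0.014 with slide as a block. In unscaled log2 intensity the difference was 0.48, and the dimmest group of genes, whose range of levels includes most of these values, had a median of 0.62. Normexp background correction added an offset of 50, above the processed intensity of every spot of this probe, before the scaling. The difference was then 0.65 (adjusted p = 0.00054, limma), which depends on the offset and the scaling and does not measure the RNA. With spots not well above background in both groups, none of these values is taken as a measured rise. Control replicate 3 was far below the other controls. Without that array the gene passed the background filter, and the difference was 0.67 with an adjusted p of 0.037 by limma; without PGC-1α replicate 3 it was 1.28 (adjusted p = 0.033, limma). It was 0.81 on slide 1 (adjusted p = 0.012 in a limma fit of that slide alone) and 1.80 on slide 2, and 0.83 with an adjusted p of 0.14 after quantile normalization. The other probe, A_55_P2745394, was above background on 2 control arrays and 1 PGC-1α array. Its difference was 0.26 (95% interval -0.43 to 0.94), with overlapping groups, and -0.068 after quantile normalization. In unscaled log2 intensity it was -0.41. With normexp background correction it was 0.53 (adjusted p = 0.0028, limma), again from intensities below the offset. Where either probe lies in the transcript is not given in the sources used here, and a probe outside the coding fragment would not see the RNA of the vector, so neither probe checks the labels. RNA of the endogenous gene and of the vector cannot be told apart here.

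Both other coactivators of the family fell, each at its brightest probe. PGC-1β, which shares the N-terminal activation domain of PGC-1α and works with ERR and SREBP factors, had levels of 0.09 and 0.41 on 2 control arrays at probe A_51_P294891, whereas control replicate 1 was dropped as an outlier spot. With PGC-1α the levels were -0.73, -0.69 and -0.42, below both control values. The fold change was -0.86 (SE 0.17, adjusted p = 0.0055, limma), that is 1.82-fold lower, with within-slide differences of -0.80 and -0.83. The second, dimmer Ppargc1b probe, A_65_P02810, had levels of -3.77, -3.99 and -3.62 in controls against -4.04, -5.08 and -4.42. All arrays of the PGC-1α group were again lower, by 0.72 on average, but this did not pass adjustment over all probes (adjusted p = 0.081, limma). After quantile normalization the difference was -0.88 (adjusted p = 0.078, limma). With normexp background correction it was -0.083 (adjusted p = 0.63, limma). The offset of 50 added there is large beside intensities of 25.3 to 154 and shrinks a difference between them. The call was lost without control replicate 2, without control replicate 3 and on slide 1 alone, where the brighter probe kept a single control value and the test moved to the dimmer one (-0.82, -0.63 and -0.68). It was also lost with the mean of both probes (-0.12, adjusted p = 0.85, limma).

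PGC-1-related coactivator, a growth-responsive member of the family that also acts through NRF1, fell at both of its probes. A_51_P143103 had levels of 1.24, 1.08 and 1.02 in controls and of 0.46, 0.22 and 0.44 with PGC-1α, a fold change of -0.74 (SE 0.13, adjusted p = 0.0027, limma) or 1.67-fold lower. A_55_P2731081, which was designed on another transcript accession of the gene, went from 0.14, -0.38 and -0.62 to -1.85, -2.02 and -1.76. Neither probe's groups overlapped. The second difference of -1.59 (SE 0.22, adjusted p over probes 0.0038, limma) was larger than the first. The ratio of the probes within each array, in which any scaling between arrays cancels, differed between the groups by -0.86 (SE 0.16, adjusted p = 0.0069, limma over 7483 pairs of probes). Pprc1 and Tfam were the 2 genes that passed the threshold under all 20 settings of processing and left-out arrays in which the fold change was recomputed, from -1.17 to -0.66 for Pprc1.

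Among the nuclear receptors, Esrra gave the bright and reproducible signal of a single probe. Its levels were 1.88, 1.98 and 1.85 in controls and 2.33, 2.52 and 2.23 with PGC-1α, without overlap. The fold change was 0.46 (SE 0.13, 95% interval 0.16 to 0.75, adjusted p = 0.017, limma), or 1.37-fold, and 0.50 and 0.38 within the slides. This call depended on the scaling. Before scaling, the mean log2 intensity was lower with PGC-1α by 0.21, and genes of its brightness group had a median log2 fold change of 0.23. After quantile normalization the Esrra value was 0.21 with an adjusted p of 0.23 (limma). It was also lost with median scaling (0.35) and with the authors' normalized values (0.18), and without control replicate 1 (0.44), control replicate 3 (0.43) or PGC-1α replicate 1 (0.47). A rise of Esrra relative to other bright genes was therefore not resolved by these 6 arrays. By Western blot, the paper reported more ERRα protein with PGC-1α in BV2 cells given LPS and ATP. The arrays measured RNA after LPS, so they do not test that result.

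The 3 PPAR genes moved in different directions. Pparg, whose product controls fat cell differentiation and is known to restrain macrophage activation, was dim but above background on all arrays. Its levels were -3.30, -3.23 and -3.79 in controls and -2.61, -2.24 and -3.04 with PGC-1α, again without overlap. The rise was 0.81 (SE 0.23, adjusted p = 0.018, limma), or 1.76-fold, with 0.84 and 0.75 within the slides and 0.73 (adjusted p = 0.041) after quantile normalization. Before scaling, the intensities of the groups overlapped and the difference in mean log2 intensity was 0.15. On both slides the Pparg rise exceeded the median of 0.38 for genes of its brightness group. The call was lost with normexp background correction followed by quantile normalization (0.53, adjusted p = 0.064) and without control replicate 3, PGC-1α replicate 1 or PGC-1α replicate 2 (0.64, 0.80 and 0.62).

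Ppard, which encodes the PPAR that is expressed in most tissues, fell from 0.82, 0.66 and 0.26 in controls to 0.04, 0.16 and 0.05. The lowest control array, replicate 3, lay just above the highest PGC-1α array, and the control spread (SD 0.29) was several times that of the PGC-1α arrays (SD 0.065). The fold change was -0.49 (SE 0.16, adjusted p = 0.032, limma), or 1.41-fold lower, with -0.64 on slide 1 and -0.20 on slide 2. After quantile normalization it was -0.51 with an adjusted p of 0.059, and the call was also lost without control replicate 1 (-0.37), control replicate 2 (-0.45), PGC-1α replicate 1 (-0.47) or PGC-1α replicate 3 (-0.48).

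Ppara, the PPAR of fatty acid oxidation in liver, gave opposite signs at its 2 dim probes. The brighter probe, A_55_P2055854, had levels of -4.21, -4.06 and -3.84 in controls and -4.25, -4.33 and -4.01 with PGC-1α, which overlap, with a fold change of -0.16 (95% interval -0.50 to 0.18, adjusted p = 0.38, limma). A_55_P2071596, of the same transcript accession, went from -4.50, -4.42 and -4.74 to -3.85, -3.81 and -3.86, without overlap, a rise of 0.71 (SE 0.14, adjusted p over probes 0.011, limma). The difference between the probes, free of scaling, was 0.87 (SE 0.20, adjusted p = 0.014, limma). No direction is therefore given for Ppara, and a median fold change of 0.53 for genes of its brightness group stands beside both probes.

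Of the nuclear respiratory factors, Gabpa rose at its brightest probe. A_55_P2745167 had levels of 0.31, 0.20 and 0.15 in controls and 1.01, 0.98 and 0.87 with PGC-1α. The scaled levels of the groups were clearly apart, with SDs of 0.079 and 0.075. The rise was 0.73 (SE 0.12, adjusted p = 0.0020, limma), or 1.66-fold, with 0.74 and 0.71 within the slides. It was 0.69 (adjusted p = 0.0041) after quantile normalization. Before scaling, the intensities of the groups overlapped and the difference in mean log2 intensity was 0.07. The other probes of the gene were less clear. A_51_P364984 went from -0.87, -0.87 and -0.49 to -0.08, -0.55 and -0.14 and differed by 0.49 (adjusted p over probes 0.086, limma; 0.0049 with normexp background correction), and A_52_P152283 went from -1.33, -0.69 and -0.51 to -1.30, -1.57 and -0.73 and differed by -0.36 (adjusted p over probes 0.35, limma). Groups overlapped at both. Relative to the brightest probe, A_52_P152283 differed by -1.09 (SE 0.31, adjusted p = 0.037, limma) and A_51_P364984 by -0.24 (adjusted p = 0.41). The mean of the 3 probes gave 0.29 with an adjusted p of 0.14, so the call for Gabpa rests on its brightest probe.

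Nrf1 had 4 probes, each designed on another transcript accession, and no common direction. The tested probe, A_66_P102204, had levels of 0.11, 0.06 and -0.16 in controls and 0.21, 0.71 and 0.05 with PGC-1α, with overlap and a difference of 0.32 (95% interval -0.11 to 0.75, adjusted p = 0.17, limma). A_55_P2000077 was lower on every PGC-1α array, at -1.99, -1.76 and -2.30 against -1.33, -1.46 and -1.66, a difference of -0.53 (adjusted p over probes 0.061, limma; 0.022 with slide as a block and 0.0041 with normexp background correction). These 2 probes differed from each other by -0.85 in log2 fold change (SE 0.13, adjusted p = 0.0024, limma). The brightest probe, A_55_P2506320, was an outlier spot on control replicates 2 and 3 and was not tested; its level was 1.36 on the remaining control array and 2.27, 1.92 and 2.07 with PGC-1α. In the authors' normalized values, which include those spots, this probe gave 0.80 (adjusted p = 0.025, limma). The fourth, A_55_P2481764, was above background on 2 control arrays and not well above background on any PGC-1α array, with measured means of -6.84 and -7.45, and its bound gave no fold.

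Tfam, a textbook target of NRF1 and GABP whose promoter stretch is shown above, fell at both probes. A_55_P2026445 had levels of 1.61, 1.64 and 1.55 in controls and 1.15, 1.14 and 0.95 with PGC-1α, and A_51_P493720 went from 0.90, 1.08 and 1.16 to 0.45, 0.41 and 0.53. No array of one group reached the range of the other at either probe. The fold changes were -0.52 (SE 0.12, adjusted p = 0.0080, limma), or 1.43-fold lower, and -0.58 (SE 0.13, adjusted p over probes 0.018, limma), and they differed by -0.07 (95% interval -0.41 to 0.28). Within the slides the first probe differed by -0.48 and -0.60. The fall was larger after quantile normalization (-0.65, adjusted p = 0.0052), beside medians of 0.08 and -0.03 for genes of its brightness group under the 2 scalings, and lay between -0.68 and -0.45 in all 20 settings.

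**Figure D2:**
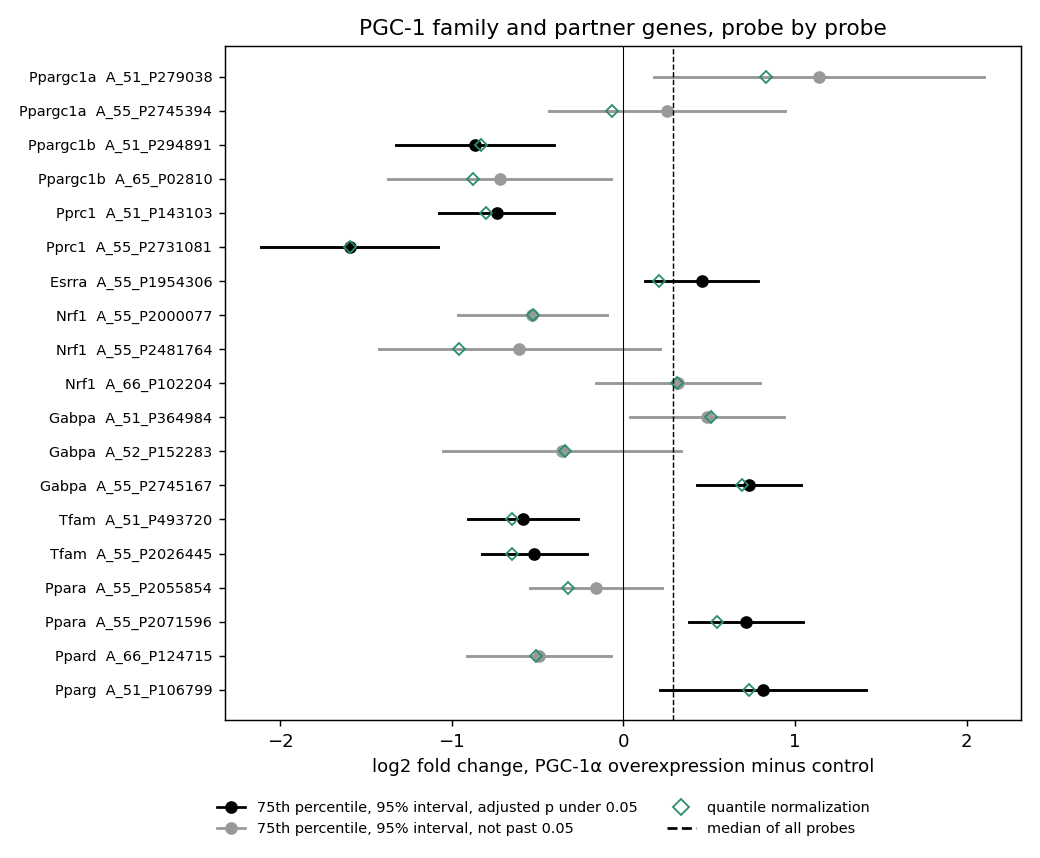
Log2 fold change with its 95% interval (x axis, PGC-1α overexpression minus control) for the 19 of 20 probes with 2 or more values in both groups, from a limma fit of all 33471 such probes; diamonds show quantile normalization and the dashed line the median of all probes, 0.29. Both Tfam and both Pprc1 probes lie left of 0, whereas the probes of Ppara, Gabpa and Nrf1 lie on both sides.

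Over all probes of the 10 genes, 4 rose and 5 fell at an adjusted p under 0.05 in the fit of probes, against 20.9% of all 33471 probes that rose and 13.6% that fell. Groups were apart at 12 of the 18 probes with a value on every array, against 51.8% of 32034 such probes matched to genes. The fit of probes includes many dim probes and is stricter than the fit of genes, and Ppard passed in the latter but not in the former (adjusted p over probes 0.069, limma), unless slide was taken as a block (0.039) or the background corrected with normexp (0.015). A second probe differed in fold change from the brightest one of its gene in 4 of 7 pairs, against 26.2% of 7483 pairs over 5925 genes; this comparison was added after the probes' values were seen.

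**Figure D3:**
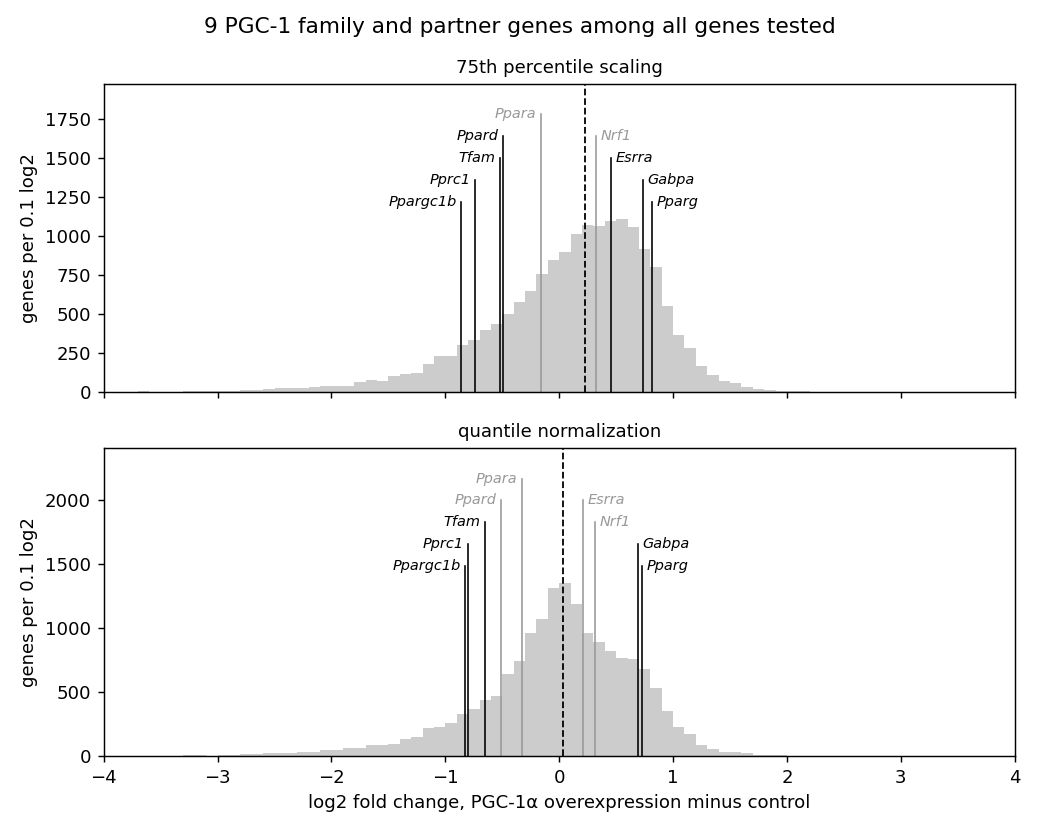
Number of genes per 0.1 log2 unit (y axis) by log2 fold change (x axis, PGC-1α overexpression minus control) for the 17063 genes tested, under 75th percentile scaling (top) and quantile normalization (bottom); lines mark the 9 tested genes (black, adjusted p under 0.05; grey, not), at heights that serve only to separate the names, and dashed lines mark the medians of 0.23 and 0.03. Ppargc1b, Pprc1 and Tfam lie in the left shoulder and Gabpa and Pparg to the right of the peak under both, and Esrra moves from 0.46 to 0.21.

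Of 22 further factors and DNA-binding partners, 20 were tested, 4 rose and 2 fell, against 36.9% and 19.6% of all genes tested, with a median log2 fold change of 0.11 against 0.23. After quantile normalization 4 rose and 3 fell, against 21.7% and 20.9%. The rises were led by Nr1h3 (1.63, adjusted p = 7.5e-05, limma), the liver X receptor α of cholesterol efflux, Foxo3 (1.13) and Thrb (1.00). Thrb was dim, with means of -4.84 in controls and -3.83 with PGC-1α, and genes of its brightness group had a median of 0.53. After quantile normalization Thrb gave 0.83 (adjusted p = 0.024, limma). The falls were Esrrg (-1.29, adjusted p = 0.0032, limma), the ERRγ relative of Esrra, and Rxra (-0.56, adjusted p = 0.0088), the DNA-binding partner shared by the PPARs. Esrrg was dim, at -2.58, -2.08 and -1.85 in controls and -3.25, -3.89 and -3.26 with PGC-1α, and its groups did not overlap. Rxra went from 2.35, 2.37 and 2.16 to 1.71, 1.89 and 1.61, also without overlap. Stat6, which the study mentions, gave 0.16 (adjusted p = 0.41, limma).

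Among 18 coactivators and corepressors, 3 rose and 6 fell, against 36.9% and 19.6% of all genes, with a median of 0.05; after quantile normalization 1 rose and 4 fell, against 21.7% and 20.9%. Prkaa1, a catalytic subunit of the kinase AMPK, which phosphorylates PGC-1α, was lower by 2.07 on the log2 scale (adjusted p = 0.00048, limma), Ep300, a histone acetyltransferase that PGC-1α recruits, by 1.52 and Med17, a Mediator subunit, by 0.98. Ep300 was at -0.39, -0.38 and -0.13 in controls and -1.97, -1.77 and -1.72 with PGC-1α. Sirt1, the deacetylase that acts on PGC-1α, fell by 0.62 (adjusted p = 0.042, limma; 0.050 after quantile normalization). The rises of Ncoa3 (0.70), Crebbp (0.56) and Ncor1 (0.36) differed in their dependence on the scaling, since after quantile normalization Ncoa3 gave 0.57 (adjusted p = 0.015), Crebbp -0.06 and Ncor1 0.03.

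Of 20 textbook targets of NRF1, GABP and ERR factors, 17 were tested, 10 rose and 2 fell, against 36.9% and 19.6% of all genes, with a median of 0.39. After quantile normalization 1 rose and 1 fell, against 21.7% and 20.9% of all genes, with a median of -0.03 against 0.03 over all genes. Cox7c, a subunit of cytochrome c oxidase, rose in both (0.88, adjusted p = 0.0021, and 0.47, adjusted p = 0.028, limma), whereas Atp5b (0.65 and 0.07) and Tomm20 (0.61 and 0.12) did so in the first. Cox4i1, another oxidase subunit, which the study followed as a protein, gave 0.58 (adjusted p = 0.0086, limma) and, after quantile normalization, -0.03. Alas1, the first enzyme of haem synthesis and a known PGC-1α target in liver, fell by 1.13 on the log2 scale (adjusted p = 0.0011, limma), and Polrmt, the RNA polymerase that works with Tfam on mitochondrial DNA, fell by 0.38 (adjusted p = 0.026, limma; 0.051 after quantile normalization). Without each array in turn, 6 to 9 of the 16 to 18 tested targets rose. Beside them, 43.6% to 56.2% of all genes passed in either direction, 61.8% to 68.2% of those higher.

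Of 21 textbook PPAR targets, 18 were tested, 6 rose and 3 fell, with a median of 0.24, next to that of all genes, and against 36.9% of all genes that rose and 19.6% that fell. Among the 6, Cyp4a10 (0.81) was above background on 2 control arrays and passed the filter only through the PGC-1α arrays. Its groups overlapped, and it lay in the dimmest group of genes, whose median was 0.62. After quantile normalization Cyp4a10 gave 0.53 (adjusted p = 0.15, limma). Cyp4a14 (1.00, adjusted p = 0.0063, limma), an enzyme of fatty acid ω-hydroxylation, Ucp3 (0.52) and Cd36 (0.50), the fatty acid transporter, rose. Of these, Cyp4a14 passed after quantile normalization (0.81, adjusted p = 0.0098). Genes of the brightness group of Ucp3 had a median log2 fold change of 0.52, and those of the group of Cd36 and Cyp4a14 one of 0.53. The values of Ucp3 and Cd36 were thus close to the medians of their groups. Abca1, the cholesterol exporter, fell by 1.40 on the log2 scale (adjusted p = 0.0019, limma) and Cpt1a, the gate of fatty acid entry into mitochondria, by 0.44. Ucp2 gave 0.46 with an adjusted p of 0.073 (limma) and 0.09 after quantile normalization. The study followed the mRNAs of several uncoupling proteins and reported Ucp2 and Ucp3 among those raised by PGC-1α in BV2 cells. That was after oxygen and glucose deprivation, not LPS. Without each array in turn, 2 to 5 of the 17 or 18 tested targets rose. Beside them, 43.6% to 56.2% of all genes passed in either direction, 61.8% to 68.2% of those higher. After quantile normalization 1 target rose and 4 fell, against 21.7% and 20.9% of all genes.

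**Figure D4:**
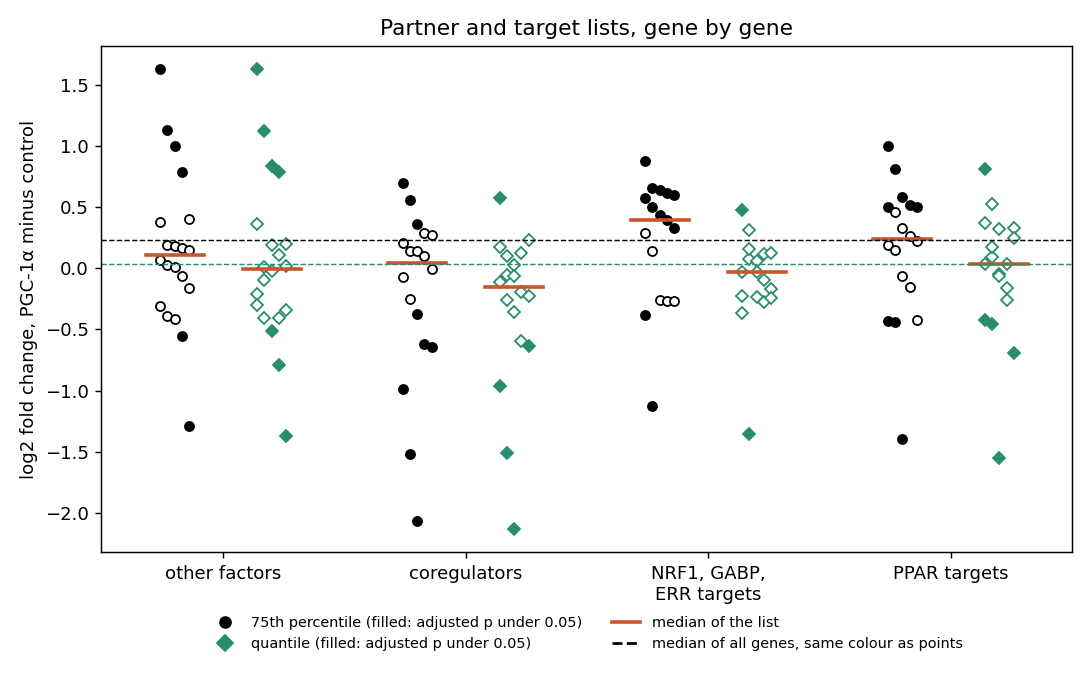
Log2 fold change (y axis, PGC-1α overexpression minus control) of every tested gene of 4 lists of other factors, coregulators and targets, under 75th percentile scaling (black circles) and quantile normalization (green diamonds), filled where the adjusted p was under 0.05; orange bars are list medians and dashed lines the medians of all genes, 0.23 and 0.03. The targets of NRF1, GABP and ERR factors go from a median of 0.39 to -0.03.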

How the data were processed

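The 6 arrays were Agilent 1-colour arrays. Per the file headers, Feature Extraction subtracted background, detrended and wrote a processed signal; the deposited intensity of each spot was used here. The labels name Cy3 and the labelling protocol Cy5, and the files hold the green channel. The authors also deposited a series table of normalized log2 values, used only as an alternative; its columns had medians of 8.29 and correlated with the log2 intensity of the same array at 0.9988 to 0.9998, and how it was normalized is not settled by the values.

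Here each log2 intensity had the array's 75th percentile over spots other than controls subtracted. Spots with an outlier flag were dropped. A gene was tested on its brightest probe that had 2 or more values in both groups and was flagged well above background throughout a group of 3, with limma 3.58.1 (lmFit, eBayes; R 4.3.3), no covariate and Benjamini-Hochberg adjustment over all genes. A second fit took every matched probe without the background filter. Normexp background correction, an alternative, added an offset of 50 to each signal, which weighs most on dim spots. Accessions were matched to genes without versions. The fits were tested on simulated data. The 10 genes are all named with all probes; from each further list, up to 3 genes with the largest rises and falls were named among those past the threshold with groups apart, and Esrrg, Sirt1 and Ucp2, which the study discusses; Cox4i1 and Stat6, also named there, were added after their values were seen. The genes, lists and tests were chosen with earlier results of these data known. Slide and scan time coincide, and each slide holds both groups, replicates 1 and 2 on slide 1 and 3 on slide 2. The number of arrays limits the precision.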

Additional observations from a re-analysis of the deposited data

How the results depend on the processing

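Of the 9 genes tested, 3 rose, beside 56.5% of all genes that passed in either direction, 65.3% of those higher. With normexp and quantile normalization 1 rose, beside 37.4% that passed, 45.8% of those higher. Within slide 1 alone, where all 10 were tested, 5 rose, beside 51.4% that passed, 66.9% of those higher. With a 2-fold change also asked, 0 rose, beside 14.2% and 47.2%. Without each array in turn, with 9 or 10 tested, 1 to 4 rose, beside 43.6% to 56.2% and 61.8% to 68.2%. The count that fell was 4, and 0 with the 2-fold change, although all 7 genes had an adjusted p under 0.05 by limma. It was 2 to 4 without each array in turn, beside the same shares over all genes. The 7 genes all kept their direction and call with slide as a block, with normexp and 75th percentile scaling, with a variance trend, with unmatched probes kept, and where the probe had to be above background on all 6 arrays. Signs turned only where a gene's probes differ or signals are dim: Nrf1 gave -0.11 for the mean of its probes, and Ppara 0.16 with normexp, 0.28 for the mean of its probes, and 0.63 on slide 1 alone and 0.62 without control replicate 3, where its other probe was the one tested, and -0.25 to 0.62 over the arrays left out in turn. Of single probes, Ppargc1a A_55_P2745394 gave -0.068 with quantile normalization and Nrf1 A_55_P2481764 gave 0.48 with normexp. The intensities of this Nrf1 probe all lay below the normexp offset of 50, so its sign there is not read as a direction. Those of Ppara A_55_P2055854, 42.6 to 132, lay around the offset. The causes of the turned signs were not tested. The mean of probes gave -0.12 for Ppargc1b, where control replicate 1 is represented by the dimmer probe alone. Over all genes, 9633 passed the threshold, of which 65.3% rose; with quantile normalization 7258 passed and 51.0% of them rose, and with normexp and quantile normalization 6386 passed and 45.8% rose. Of the same-numbered arrays, those numbered 3, which share slide 2, deviated together (r = 0.60), and the others did not (r = -0.16 and 0.07), so the numbers were not taken as pairs. With the replicate number as a block, 3 of the 9 genes tested rose and 4 fell. In that fit 10561 of 17063 genes passed (61.9%), 66.2% of those higher. In the fit of probes with this block, Ppargc1a A_51_P279038 (adjusted p = 0.019), Ppargc1b A_65_P02810 (0.032) and Nrf1 A_55_P2000077 (0.035, limma) passed. Signals near background limit Ppargc1a, Ppara and Nrf1 A_55_P2481764.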
